A study of Mus musculus with 13 samples.

Results

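The transcripts described here encode 10 subunits of nuclear corepressor complexes of mouse embryonic stem (ES) cells: Hdac1 and Hdac2, which are shared between complexes; Kdm1a, Rcor1, Rcor2 and Zmym2 of CoREST; Chd4, Mbd3 and Mta2 of NuRD; and Smarca5 of ISWI. They were chosen by symbol from the 26797 genes of the replicate libraries, not by a cut on their levels, though with earlier results of these data known. The same Ensembl identifiers were read from the 49671 genes of a joint count table, so that all 10 members were found in both. RNA-seq was made of 3 replicate libraries of WT ES cells of the line AinV15 and 3 of ES cells with both copies of Dnmt1 inactivated (Dnmt1-/-, the line labelled D1-null, C allele), both untreated. The joint table holds 1 library each of WT, Dnmt1-/-, dCas9-OGA and dCas9-OGA-D242A cells. The last pair are WT AinV15 cells with 4 sgRNAs against IAP retrotransposons and a doxycycline-inducible fusion of catalytically dead Cas9 to OGA, the enzyme that removes O-GlcNAc from proteins, or to the inactive D242A form of OGA, harvested after 48 h in 1 μg/mL doxycycline. All cells were grown on gelatin with leukemia inhibitory factor. WT and Dnmt1-/- are 1 line each, so genotype and line cannot be told apart, and nothing says that the replicates came from separate cultures, so that p-values measure the spread between libraries, which may be technical.

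These complexes carry out related steps of gene silencing. Histone deacetylases 1 and 2 remove acetyl groups from histone tails and work as a pair inside NuRD, CoREST and SIN3. NuRD joins them to an ATP-driven chromatin remodeller, CoREST joins them to the lysine demethylase encoded by Kdm1a, which takes methyl groups off lysine 4 of histone H3, and ISWI enzymes space nucleosomes without deacetylase activity of their own. The study asked which proteins silence methylated retrotransposons together with TRIM28, a scaffold that brings histone-modifying enzymes to KRAB zinc finger proteins on DNA, and whether O-GlcNAc on such proteins is needed. Products of several members appear there under other names, such as SNF2H for Smarca5 and ZFP198 for Zmym2.

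The replicate libraries held between 26846275 and 37112247 reads on genes, and the single libraries between 18693531 and 25097983. Dnmt1 itself, the mutated gene, fell from 336 ± 24.1 to 75.5 ± 2.02 (mean ± SD, n = 3; signal units, described below), which is −2.14 on the log2 scale (SE 0.05, limma adjusted p = 1.1e-20), and was at 61.9 cpm in the single Dnmt1-/- library against 376 to 548.5 cpm in the other three. Libraries of the same group differed 2-fold in 2 to 6 of the tested genes and libraries of different groups in 2214 to 2500. Markers of ES cells were present in every replicate library, with a summed signal of 5944 to 6103 in WT and 5729 to 6087 in Dnmt1-/- over 9 genes, of which 2 were called higher and 4 lower. Summed fibroblast markers lay at 1090 to 1562 in WT and 261.5 to 292 in Dnmt1-/- (8 of 8 lower), 2-cell-like markers at 591.5 to 627 and 245 to 276 (8 of 8 lower), primitive endoderm markers at 372 to 392 and 668 to 707 (7 of 8 higher), and trophoblast markers at 63.5 to 65.8 and 92.7 to 101 (6 of 7 tested higher and 1 lower). None of these markers was at 0 in either group. These values move with genotype beside every difference below, and their part in the differences was not tested. In such bulk RNA, fewer cells of a type and less RNA per cell cannot be told apart.

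The first comparison asked how the corepressor transcripts differ between demethylated and WT cells. All 10 members differed between Dnmt1-/- and WT cells (limma on log2(signal + 0.5), Benjamini-Hochberg adjusted over 17297 genes, threshold 0.05). Rcor1, Chd4, Zmym2, Smarca5, Mta2 and Kdm1a rose, and Mbd3, Rcor2, Hdac1 and Hdac2 fell. Of all genes tested, 71.2% were called, 35.8% higher and 35.4% lower, and so the count of members called says little about these genes in particular. For 10 of 10 members the groups did not overlap, all 3 libraries of one lying on the same side of all 3 of the other, as for 73.3% of all genes tested. The sizes were modest. The median size of the log2 fold change was 0.39 over the members and 0.36 over all genes tested, and 1 member, Rcor1, passed 1.5-fold, as did 31.1% of all genes tested. Among the 3306 genes with a mean signal at or above the lowest mean of a member, 75.4% were called and 17.1% passed 1.5-fold. Of these genes 1682 were called higher and 811 lower, so calls at this level leaned towards higher, unlike those over all genes. The signal is a read count divided by a scaled library size, on a scale near that of cpm, and is not corrected for gene length.

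**Figure D1:**
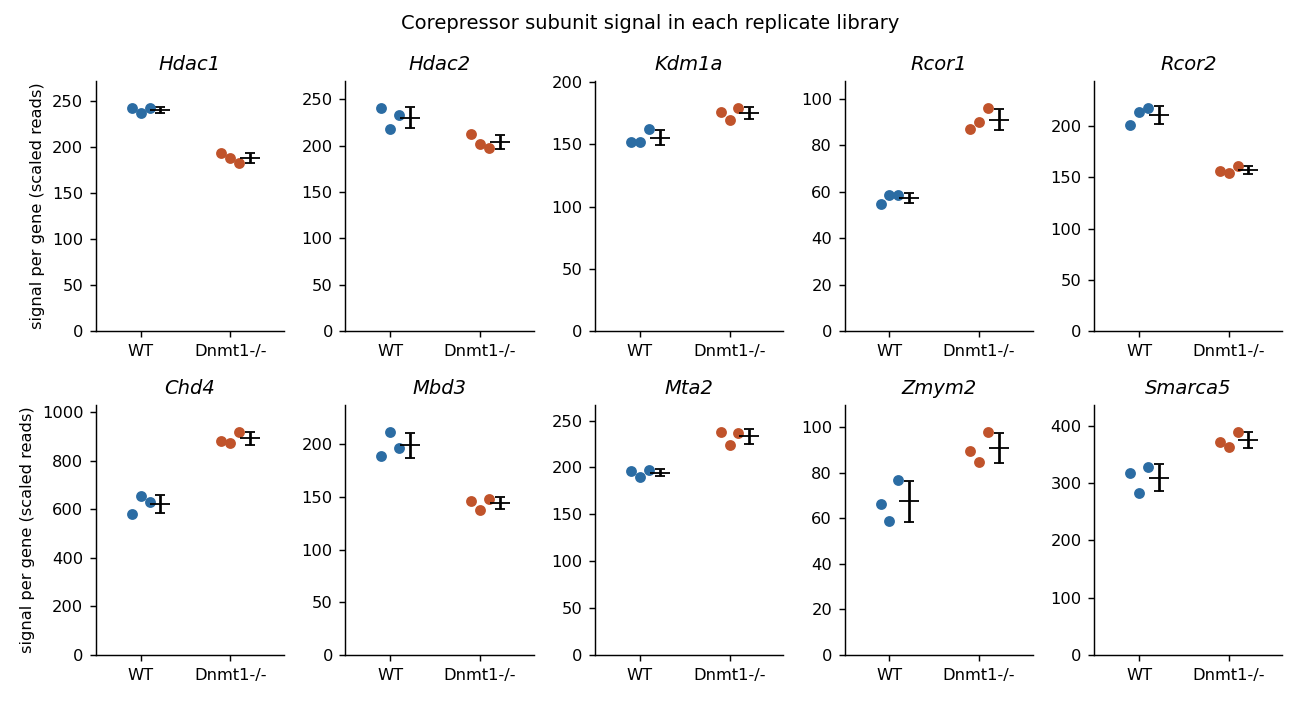
Signal of each of the 10 members (y axis, reads per gene divided by a scaled library size, starting at 0) in the 3 WT (blue) and 3 Dnmt1-/- (orange) replicate libraries; each point is 1 library, and the bar beside them is the mean ± SD. In every panel the points of one group lie wholly above those of the other, with Rcor1 at 54.6 to 58.5 in WT and 87.05 to 96.0 in Dnmt1-/-.

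Both shared deacetylases were lower in Dnmt1-/- cells. Hdac1 (chr4:129516104-129542713, GRCm38, minus strand) had signals of 242.4, 237 and 242.3 in the WT libraries and 194, 189 and 182 in the Dnmt1-/- libraries. The lowest WT library stood well above the highest Dnmt1-/- library, and the mean fell from 240.5 ± 3.22 to 188 ± 5.82 (SD, n = 3), or −0.35 on the log2 scale (SE 0.05, limma adjusted p = 4.1e-07). Hdac2 (chr10:36974544-37001889, plus strand), its close paralogue, had signals of 241, 218 and 233 in WT and 212, 201 and 198 in Dnmt1-/-. Here the groups came near each other without overlap, and the log2 fold change was −0.18 (SE 0.05, limma adjusted p = 0.0035). Hdac1 reads are shared with a pseudogene, as described further on.

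The CoREST members moved in both directions. Rcor1 (chr12:111039351-111115901, plus strand) encodes CoREST itself, the scaffold that holds the demethylase and the deacetylases together on nucleosomes. Its signals were 54.6, 58.5 and 58.4 in WT and 87.05, 89.9 and 96 in Dnmt1-/-. The increase from 57.2 ± 2.22 to 91 ± 4.59 (SD, n = 3) was the largest of the 10, with a log2 fold change of 0.67 (SE 0.05, limma adjusted p = 6.7e-11). Rcor2 (chr19:7267325-7275225, plus strand), the second scaffold of the family and the more abundant of the pair in these cells, went the other way. It had signals of 201, 213 and 218 in WT and 156, 154 and 161 in Dnmt1-/-, and all 3 Dnmt1-/- libraries lay below all 3 WT libraries. The mean fell from 211 ± 8.82 to 157 ± 3.71, with a log2 fold change of −0.42 (SE 0.05, limma adjusted p = 4.1e-08).

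Kdm1a (chr4:136550540-136602723, minus strand), the catalytic demethylase, had the smallest difference of the 10 in the main fit, next to Hdac2 at −0.18. With the chromosome median removed this order turned, with Kdm1a at 0.19 and Hdac2 at −0.14. Kdm1a signals were 152, 152 and 162 in WT and 176, 169.8 and 179 in Dnmt1-/-, without overlap, and the log2 fold change was 0.17 (SE 0.05, limma adjusted p = 0.0031). This call did not survive when every library was given the same total (log2 fold change 0.08, limma adjusted p = 0.14) or when the median of the 200 genes nearest in GC content and length was subtracted (0.10, limma adjusted p = 0.063). Zmym2 (chr14:56886653-56962701, plus strand), a zinc finger protein found with CoREST, had signals of 66.2, 58.9 and 76.9 in WT and 89.6, 84.7 and 98 in Dnmt1-/-. Relative to their mean, WT libraries were spread more widely for this gene than for the other CoREST members, yet the highest of them stayed below the lowest Dnmt1-/- library, and the log2 fold change was 0.43 (SE 0.07, limma adjusted p = 7.9e-06).

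Among the NuRD members the remodeller rose and the MBD subunit fell. Chd4 (chr6:125095981-125130591, plus strand), the ATPase that drives nucleosome remodelling in NuRD, had signals of 579.5, 655 and 628 in WT and 879, 874 and 919.7 in Dnmt1-/-. All 3 Dnmt1-/- libraries lay far above the WT libraries, and the mean rose from 621 ± 38.5 to 891 ± 24.9 (SD, n = 3), or 0.52 on the log2 scale (SE 0.06, limma adjusted p = 1.1e-08). Mbd3 (chr10:80392539-80399550, minus strand), a relative of the methyl-CpG-binding proteins that is required for NuRD assembly but in mammals binds methylated DNA poorly, had signals of 189, 212 and 196 in WT and 147, 138 and 148 in Dnmt1-/-. Its mean fell from 199 ± 12 to 144 ± 5.69, the largest decrease of the 10, with a log2 fold change of −0.46 (SE 0.05, limma adjusted p = 2.5e-08). Mta2 (chr19:8941875-8952303, plus strand), which anchors the deacetylases in NuRD, had signals of 196, 190.0 and 197 in WT and 238, 224 and 237 in Dnmt1-/-. All Dnmt1-/- libraries were above all WT libraries, and the log2 fold change was 0.26 (SE 0.05, limma adjusted p = 3.4e-05).

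Smarca5 (chr8:80698507-80739497, minus strand), the principal ISWI ATPase of ES cells, had signals of 317, 283 and 327 in WT and 372, 363 and 389.8 in Dnmt1-/-. The mean rose from 309 ± 23.3 to 375 ± 13.8 (SD, n = 3), or 0.28 on the log2 scale (SE 0.06, limma adjusted p = 8.4e-05), but this call was lost when reads on its pseudogenes were added, as described further on. The median log2 fold change of the tested genes on the chromosomes of the members lay between −0.07 and 0.03. Chromosome 11, which holds no member, stood apart with a median of 0.35 over 1346 tested genes, against −0.07 to 0.06 on the other autosomes and X. The genes nearest to each member in GC content and length had medians between −0.01 and 0.15.

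Per kilobase of exon, Mbd3 was the most abundant member in WT cells, with a signal of 100.2 ± 6.06 per kb (SD, n = 3). It was followed by Chd4 at 77.5, Hdac1 at 69.8, Rcor2 at 66.7, Hdac2 at 51.5, Mta2 at 47.5, Smarca5 at 39.8 and Kdm1a at 30.0, and Rcor1 at 10.1 and Zmym2 at 8.57 stood last. Neighbours in this order were separate in every library except Hdac1 and Rcor2, and Rcor1 and Zmym2, whose libraries overlapped. In Dnmt1-/- cells Chd4 came first at 111 ± 3.10 per kb and Mbd3 second at 72.5 ± 2.86. Mta2 moved up to rank 3 at 56.9, next to Hdac1 at 54.6, whose libraries it overlapped, and Smarca5 at 48.2 overlapped both Rcor2 at 49.8 and Hdac2 at 45.6. Kdm1a at 33.8, Rcor1 at 16.0 and Zmym2 at 11.6 kept the last places. The scale divides by the summed length of all annotated exons of a gene, so a gene with many rarely used exons reads low on it. Reads on pseudogenes of Hdac1 and Smarca5, described further on, are left out of this order, and the places of both depend on that. Before division by length, Hdac1 with 1 copy added came to 326 in WT and 264 in Dnmt1-/-.

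Most members have a paralogue that can take their place in the complex, and the ratio of the pair within a library needs no scaling between libraries. With 3 libraries against 3 the exact two-sided permutation test cannot go below p = 0.10. Adjustment over the 8 pairs compared cannot lower it, so none of these differences could pass the threshold. Rcor1 stood to Rcor2 at a log2 ratio of reads per kilobase of −2.73 ± 0.02 in WT cells (SD, n = 3) and −1.64 ± 0.05 in Dnmt1-/- cells. That is a shift of 1.09 towards Rcor1, although Rcor2 remained the more abundant scaffold in all 6 libraries. The catalytic subunits of NuRD and ISWI shifted further. Chd4 over Chd3, a remodeller that can replace it, went from 3.02 ± 0.12 to 4.59 ± 0.04. Smarca5 over Smarca1, the other ISWI ATPase, went from 3.85 ± 0.06 to 5.53 ± 0.02. In both pairs the paralogue fell more than the member rose: Chd3 fell from 80.9 ± 9.03 to 39 ± 0.682 (log2 fold change −1.04) and Smarca1 from 16.9 ± 0.861 to 6.36 ± 0.31 (log2 fold change −1.34). Chd3 lies on chromosome 11, whose genes had a median of 0.35. With the reads of its pseudogenes added to Smarca5, the shift of Smarca5 over Smarca1 was 1.44 in place of 1.69, below the 1.57 of Chd4 over Chd3. In the single libraries, described further on, 5 of the 8 ratios differed between Dnmt1-/- and WT in the same direction as here and 3 in the opposite one. The 3 were Smarca5 over Smarca1 (5.13 in WT and 3.71 in Dnmt1-/-, on 36 counts of Smarca1 in WT), Mta2 over Mta1 (0.95 and 0.58) and Mbd3 over Mbd2 (4.27 and 5.24). The shift of the single libraries with base composition, described further on, was not removed from these ratios. Among the 5, Hdac1 over Hdac2 rests on 618 counts of Hdac1 in WT and 359 in Dnmt1-/-.

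Kdm1a over Kdm1b, the second demethylase of this class, moved the other way, from 3.37 ± 0.03 to 2.69 ± 0.03, and Kdm1b itself rose from 15.9 ± 0.879 to 28.7 ± 1.1. The ratio of Zmym2 to Zmym3, a related zinc finger protein, went from −0.51 ± 0.19 to −0.20 ± 0.10. Hdac1 over Hdac2 went from 0.44 ± 0.06 to 0.26 ± 0.02. The libraries of the groups did not overlap in these 6 pairs, for each of which the exact permutation p was 0.10 (adjusted p = 0.13). Of single genes, 73.3% were without overlap, so 6 of 8 pairs is near that background, and the share over other pairs of genes was not computed. For the other two they overlapped (exact permutation p = 0.20, adjusted p = 0.20): Mta2 over Mta1, the other common MTA protein, at 0.74 ± 0.15 and 0.91 ± 0.08, and Mbd3 over Mbd2, its methyl-CpG-binding relative, at 3.17 ± 0.13 and 3.02 ± 0.03. Without WT replicate 2 the differences of these last pairs shrank, from 0.17 to 0.09 for Mta2 over Mta1 and from −0.15 to −0.08 for Mbd3 over Mbd2, and that of Zmym2 over Zmym3 went from 0.30 to 0.20.

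**Figure D2:**
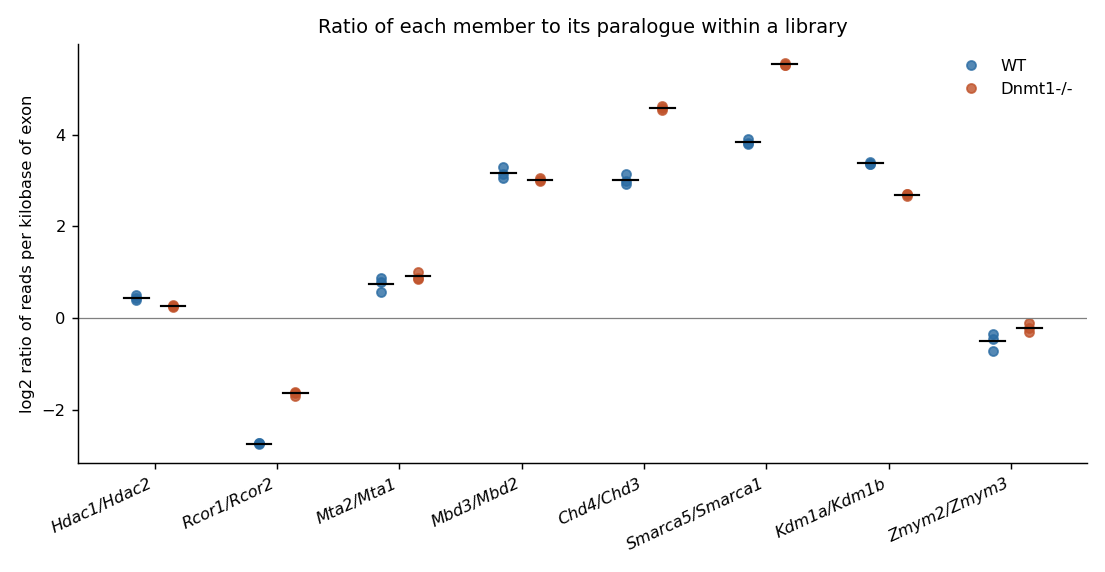
Log2 ratio of reads per kilobase of exon between a member and its paralogue (y axis) within each of the 3 WT (blue) and 3 Dnmt1-/- (orange) replicate libraries; each point is 1 library and the line is the mean of 3. The groups are apart in 6 of the 8 pairs, beside 73.3% of single genes tested, and Smarca5 over Smarca1 goes from 3.85 to 5.53 and Chd4 over Chd3 from 3.02 to 4.59, without the reads of pseudogenes.

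Processed pseudogenes, which are reverse-transcribed copies of a spliced mRNA, carry reads that cannot always be told from those of the parent gene. Transcripts of the members were aligned to all GENCODE vM21 transcripts, and copies of at least 90% identity over at least 200 bases were kept. Processed pseudogenes met this limit for 2 members, Hdac1 and Smarca5. Hdac1 has 3 such copies, of which Gm10093 was counted and the other two were not analysed here. Gm10093 on chromosome 17 (chr17:78491582-78493025, GRCm38, plus strand) is a copy of the coding part of Hdac1 that differs at 9 of 1444 aligned bases (99.38% identity). Of the 1989 stretches of 50 bases in the Hdac1 transcript, 1121 (56.4%) are present unchanged in Gm10093. The stretch of 120 coding bases with the most differences is shown, bases 447 to 566 of the transcript and chr17:78491944-78492063 for the copy, with the 6 bases that differ in capitals.

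Hdac1 transcript: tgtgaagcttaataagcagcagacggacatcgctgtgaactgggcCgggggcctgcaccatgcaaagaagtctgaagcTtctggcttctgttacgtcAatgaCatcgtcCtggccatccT

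Gm10093: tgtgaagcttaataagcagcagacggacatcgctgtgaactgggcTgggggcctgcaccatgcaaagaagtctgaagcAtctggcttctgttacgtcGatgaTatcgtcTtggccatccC

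In the replicate libraries Gm10093 took 26.2% to 26.5% of the reads on Hdac1 and this copy in WT cells and 27.7% to 29.4% in Dnmt1-/- cells. With the copy's signal added, Hdac1 was at 326 ± 4.76 in WT and 264 ± 9.11 in Dnmt1-/- (SD, n = 3; log2 fold change −0.31, limma adjusted p = 4.4e-06) and the call was kept, with the other copies not analysed here. In the single libraries the split was turned around. The 4 libraries held 618 (WT), 359 (Dnmt1-/-), 592 (dCas9-OGA) and 535 (dCas9-OGA-D242A) counts on Hdac1, beside 5748, 3433, 5584 and 5396 on Gm10093, so that the copy took 90.3%, 90.5%, 90.4% and 91.0% (95% Wilson intervals within 89.5% to 91.7%, counting error only). The submitters' processing notes list TopHat2 for the dCas9 libraries and HISAT2 for the replicate libraries, whereas the methods name HISAT2 with no exception. Which mapper made the joint table is thus not settled, and the part of the mapper in this split was not tested. Whether the reads on Gm10093 came from Hdac1 RNA or from the copy was not tested. A value of Hdac1 in the single libraries therefore rests on the few reads counted on the gene, and no level of Hdac1 was compared between the tables.

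Smarca5 has 6 processed pseudogenes between positions 145464204 and 147738426 of chromosome 4 (GRCm38), of which 3 are in the replicate files: Smarca5-ps, Gm13034 and Gm13136. They differ from the Smarca5 transcript at 56 of 3116, 61 of 3152 and 47 of 2946 aligned bases. The stretch of 120 coding bases with the most differences is shown, bases 2106 to 2225 of the Smarca5 transcript, chr4:146069480-146069599 (plus strand) of Gm13034 and chr4:147736807-147736926 (minus strand) of Gm13136, with every base that differs in at least 1 of the copies in capitals.

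Smarca5 transcript: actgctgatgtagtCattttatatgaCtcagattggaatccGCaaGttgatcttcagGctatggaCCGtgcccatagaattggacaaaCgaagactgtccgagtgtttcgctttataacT

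Smarca5-ps: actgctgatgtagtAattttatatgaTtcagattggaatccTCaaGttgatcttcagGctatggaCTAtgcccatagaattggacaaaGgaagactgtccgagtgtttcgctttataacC

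Gm13034: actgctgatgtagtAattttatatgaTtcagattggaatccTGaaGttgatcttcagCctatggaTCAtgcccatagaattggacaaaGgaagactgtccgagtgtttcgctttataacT

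Gm13136: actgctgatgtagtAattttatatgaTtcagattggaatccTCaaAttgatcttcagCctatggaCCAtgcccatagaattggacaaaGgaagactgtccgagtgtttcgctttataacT

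These copies did not move with the parent gene. Smarca5-ps fell from 16.4 ± 1.501 in WT to 5.79 ± 0.812 in Dnmt1-/- (SD, n = 3; log2 fold change −1.43, limma adjusted p = 5.3e-12). Gm13034 fell from 52.1 ± 4.42 to 15.3 ± 1.31 (log2 fold change −1.74, limma adjusted p = 2.3e-16), and Gm13136 from 39.6 ± 2.43 to 28.6 ± 1.29 (log2 fold change −0.46, limma adjusted p = 4.4e-07). The share of reads on the 3 copies was thus 25.4% to 26.4% in the WT libraries and 11.3% to 12.1% in the Dnmt1-/- libraries. With their signal added, Smarca5 came to 417 ± 30.9 in WT and 424 ± 14.5 in Dnmt1-/-, a log2 fold change of 0.03 (SE 0.06, limma adjusted p = 0.68). Whether reads passed from the copies to Smarca5, or the RNA of each changed, was not tested. In the single libraries the 6 copies took between 31.7% and 35.3% of the reads, with no such step in the Dnmt1-/- library (31.7%, against 33.1% in WT).

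**Figure D3:**
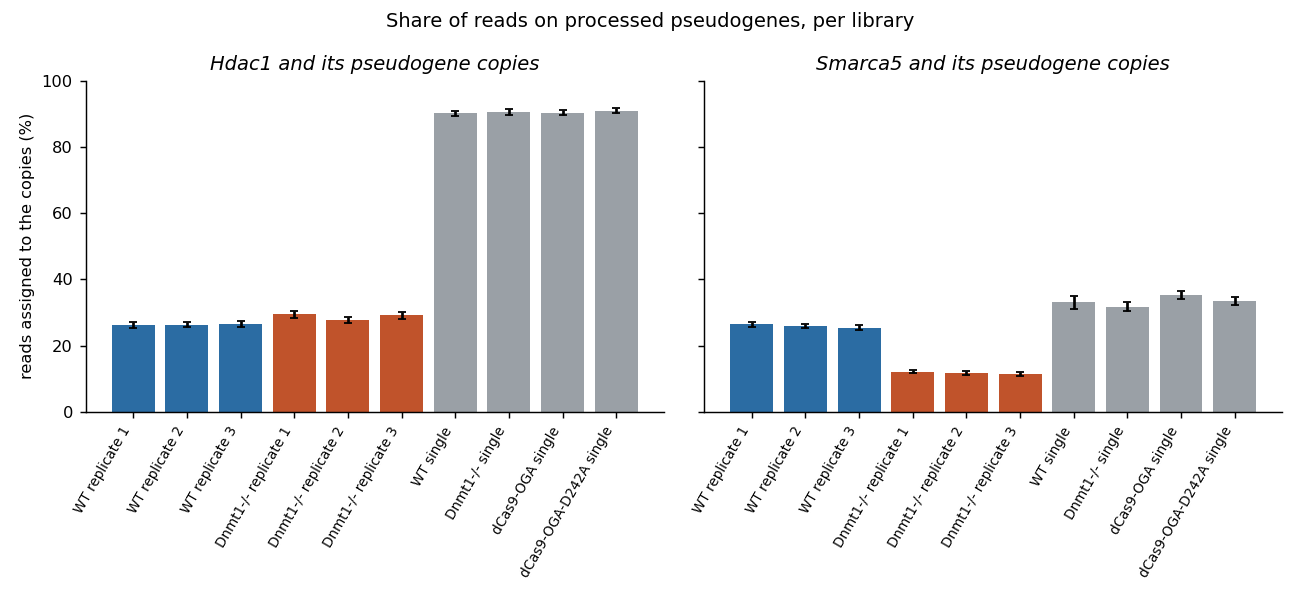
Percentage of reads assigned to processed pseudogene copies among all reads on Hdac1 (left) or Smarca5 (right) and their copies, in each of the 6 replicate libraries (blue WT, orange Dnmt1-/-) and 4 single libraries (grey); bars start at 0 and error bars are 95% Wilson counting intervals. The copy of Hdac1 takes 26.2% to 29.4% in the replicate libraries and 90.3% to 91.0% in the single libraries, and the Smarca5 share is 25.4% to 26.4% in WT and 11.3% to 12.1% in Dnmt1-/- replicates.

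Other subunits of the same and related complexes moved in both directions as well. Of 44 such genes tested in Dnmt1-/- against WT cells, 17 were called higher, 14 lower and 13 were not called, with a median log2 fold change of 0.08 beside 0.01 over all genes tested. The 31 called are near the background, since 71.2% of all genes were called, 35.8% higher and 35.4% lower. For the other NuRD subunits the counts were 4 higher, 5 lower and 1 not called of 10 (median −0.05). Gatad2a, a GATA zinc finger subunit that bridges its remodeller and deacetylase modules, rose from 261 ± 10.6 to 327 ± 5.72 (log2 fold change 0.33, SE 0.05), and Mta3 from 115 ± 4.49 to 139 ± 3.74 (0.28, SE 0.05). The largest falls were those of the remodellers Chd3, given above, and Chd5, which fell from 20.4 ± 1.44 to 14.5 ± 1.7 (−0.49, SE 0.08).

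The CoREST list had 2 higher, 2 lower and 3 not called of 7 tested (median 0.02), and its eighth gene, Gse1, was not analysed here in the replicate libraries. Kdm1b, which shares its chemistry with Kdm1a but is not a stable part of CoREST, had the largest log2 fold change of this list, 0.83 (SE 0.07). Zmym3, an MYM-type zinc finger relative of Zmym2, rose from 97.1 ± 3.64 to 107 ± 0.692 (0.13, SE 0.05). Hmg20b, the HMG-box subunit of CoREST also called BRAF35, fell from 65.2 ± 1.19 to 44 ± 0.507 (−0.56, SE 0.05). Ctbp1, a corepressor that joins CoREST to DNA-binding factors, fell from 132 ± 4.53 to 109 ± 2.52 (−0.27, SE 0.05). Its paralogue Ctbp2 held 7 to 20 reads in the replicate libraries but 6864 to 14332 in the single libraries, so its value in the former (not called) should not be read as its level. The same holds to a lesser degree for Rsf1 of the ISWI list, with 37 to 58 reads beside 573 to 2119.

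Of the other ISWI subunits 1 was higher, 4 lower and 5 not called of 10 (median −0.02). Baz1a, which pairs with Smarca5 in the ACF and CHRAC complexes, rose from 26.9 ± 1.31 to 62.6 ± 1.51 (log2 fold change 1.2, SE 0.06, limma adjusted p = 3.1e-15). Chrac1, a small histone-fold subunit of CHRAC, fell from 43.7 ± 1.26 to 27.8 ± 2.08 (−0.64, SE 0.06), and Smarca1, the alternative ATPase, had the largest fall of this list, −1.34 (SE 0.08). The SIN3 list, another complex of the shared deacetylases, had 8 higher, 1 lower and 2 not called of 11 (median 0.35), beside 35.8% higher and 35.4% lower over all genes. Of the 3306 genes at or above the lowest mean of a member, 1682 were higher and 811 lower, although several SIN3 genes lie below that level. These differences were not tested. The list included Ing2, a reader of methylated histone H3, which rose from 14.2 ± 0.173 to 21.7 ± 1.31 (0.60, SE 0.07), and the scaffold Sin3a, which rose from 36.2 ± 2.66 to 51.5 ± 2.93 (0.50, SE 0.06). Brms1 fell from 53.2 ± 1.84 to 47.9 ± 0.329 (−0.15, SE 0.05).

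Among 6 other class I deacetylases and recruiters, 2 were higher, 2 lower and 2 not called (median 0.03). Hdac3, the deacetylase of the NCoR and SMRT complexes, rose from 53.6 ± 1.17 to 67.9 ± 0.145 (0.34, SE 0.05), and Trim28 rose from 2296 ± 93.2 to 2750 ± 67.4 (0.26, SE 0.06). Sall1, a zinc finger protein that binds NuRD, fell from 283 ± 13.1 to 91 ± 1.46, a log2 fold change of −1.63 (SE 0.05, limma adjusted p = 4.5e-19), and Sall4, a related factor of ES cells, fell from 393 ± 22.8 to 340.3 ± 13.5 (−0.21, SE 0.05).

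**Figure D4:**
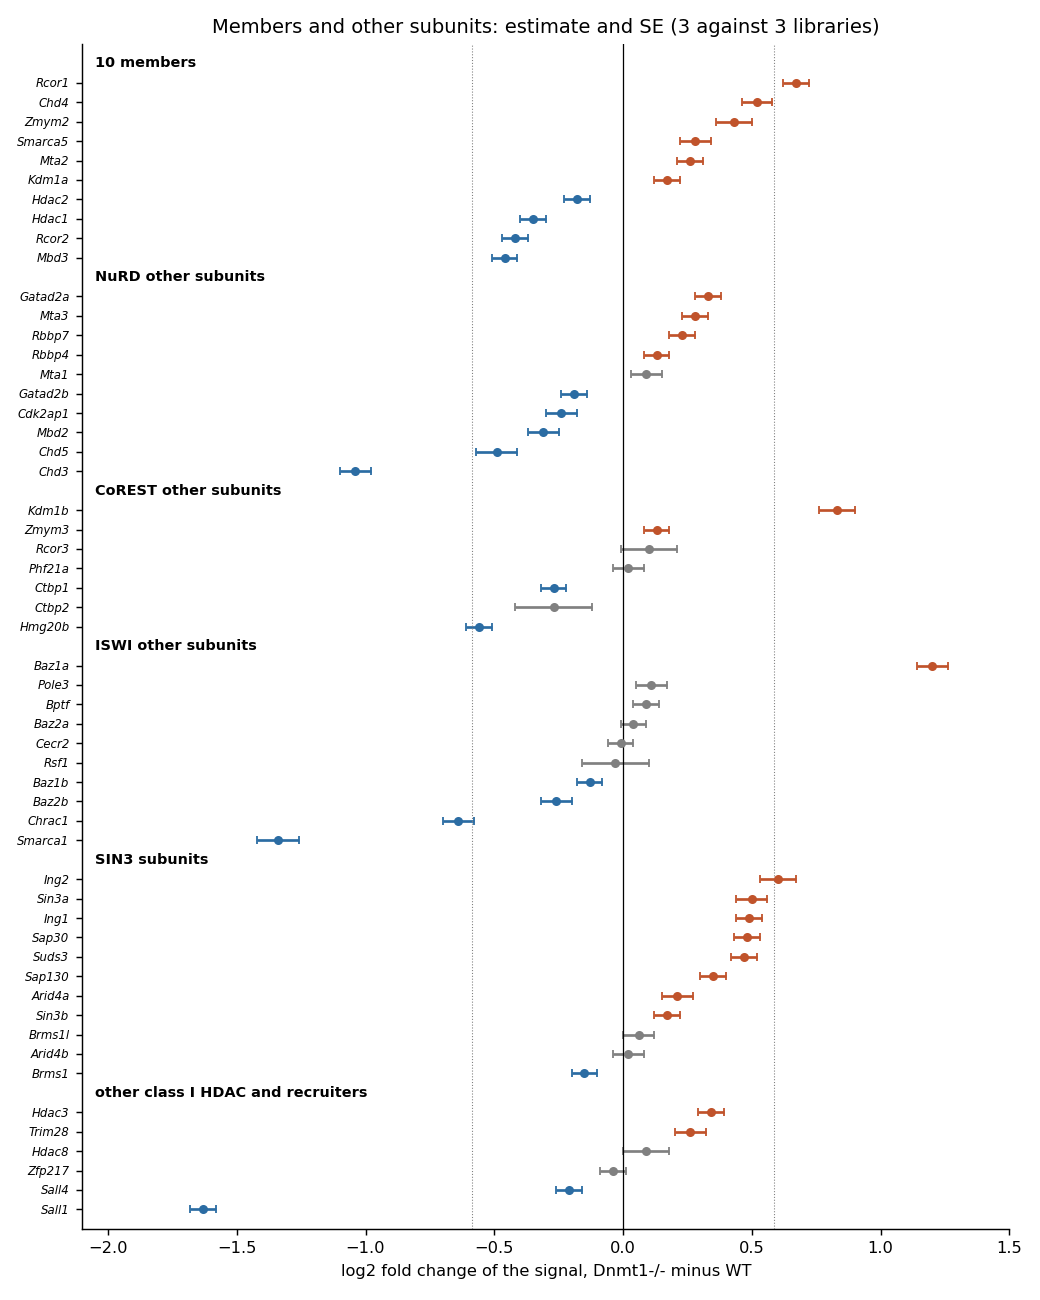
Log2 fold change of the signal in Dnmt1-/- against WT (x axis; points are limma estimates and bars 1 SE, 3 libraries against 3) for the 10 members and for the tested genes of 5 lists of other subunits; orange is called higher, blue called lower, grey not called, and dotted lines mark 1.5-fold. The members run from −0.46 for Mbd3 to 0.67 for Rcor1, and each list except SIN3, with 1 lower, and ISWI, with 1 higher, has at least 2 called genes on each side.

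The promoters of the members are rich in CpG dinucleotides, the kind of site at which DNMT1 acts. Whether the CpG of these promoters were methylated in either group is not known here. RefSeq windows of 300 bases (250 before and 50 after the start, GRCm38.p6) matched 9 of the 10 members with 11 windows, and Hdac1 had none in the table. These windows held 17 to 36 CpG with a median of 29, against a median of 7 over all 32851 windows, and 31.4% of all windows held at least 17. Their ratio of observed to expected CpG was 0.67 to 1.08 (median of all windows 0.38). The lowest ratio belonged to Rcor2 and the highest to Kdm1a. The bases upstream of the annotated gene start are shown for the pair of scaffolds that moved in opposite directions, with each CpG in capitals: 234 bases of Rcor1 at chr12:111039117-111039350 with 23 CpG, and 181 bases of Rcor2 at chr19:7267144-7267324 with 10, both GRCm38.p6 and plus strand. No DNA methylation was measured in these files.

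Rcor1 upstream: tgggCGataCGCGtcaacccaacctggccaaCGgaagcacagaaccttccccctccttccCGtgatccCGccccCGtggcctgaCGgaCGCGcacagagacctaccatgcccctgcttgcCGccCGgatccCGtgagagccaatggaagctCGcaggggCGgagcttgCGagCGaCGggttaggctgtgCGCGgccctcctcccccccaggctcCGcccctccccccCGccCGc

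Rcor2 upstream: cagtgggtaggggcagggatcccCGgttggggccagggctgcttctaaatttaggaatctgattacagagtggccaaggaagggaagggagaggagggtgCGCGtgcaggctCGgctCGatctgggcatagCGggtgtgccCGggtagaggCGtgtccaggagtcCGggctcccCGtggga

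Of 5 motifs searched on both strands, GGGCGG, the GC box, was in 9 of the 11 windows and in 35.66% of all windows, and CCAAT was in 6 of 11 and 37.41%. TATAAA was in 1 window, that of Mbd3 (13.62% of all), and CCGGAAG, an ETS-type motif, in 1, that of Mta2 (8.86% of all). The palindromic NRF1 motif was in 0 of 11 (0.97% of all). A match describes the letters of the window only.

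The second set of comparisons used the 4 single libraries, with 1 library per condition. No difference below has a replicate check, no p-value is given, and the 95% intervals (exact binomial) cover counting error only. Values are cpm scaled with TMM factors, and log2 ratios are of cpm + 0.5, which slightly understates the change of low genes. The question of the first of them was whether an active fusion of OGA at IAP elements differs from an inactive one. Between dCas9-OGA and dCas9-OGA-D242A, 1 member, Mta2, passed 1.5-fold, higher in dCas9-OGA, and none was 1.5-fold lower. The background was 12722 genes with a sum of 100 counts or more in the pair, of which 13.2% lay past 1.5-fold on the high side and 15.2% on the low side. Cell-state markers moved with this comparison too. Summed ES cell markers came to 7155 cpm with the active and 4596 cpm with the inactive fusion, primitive endoderm markers to 282 and 141 cpm, and trophoblast markers to 71.2 and 117 cpm, and their part in the differences was not tested.

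Mta2 was counted 7464 times in dCas9-OGA and 4968 times in dCas9-OGA-D242A, or 301 and 199.9 cpm, a log2 ratio of 0.59 (95% interval 0.54 to 0.64) that lies just past the limit. Mbd3 lay just inside it on the other side, at 134 and 195 cpm, with a log2 ratio of −0.54 (−0.60 to −0.47). Hdac2 was at 0.44 (0.38 to 0.50) and Rcor1 at 0.36 (0.26 to 0.47), both higher in dCas9-OGA. Kdm1a at −0.31, Smarca5 at −0.30 and Chd4 at −0.17 were lower there. Smarca5 lies on chromosome 8, whose tested genes had a median of −0.45 in this comparison, and with that median removed it was at 0.15, higher in dCas9-OGA, while the chromosome medians of the other members were between 0.01 and 0.17. For Hdac1 (0.14, −0.02 to 0.32), Rcor2 (−0.04, −0.11 to 0.03) and Zmym2 (−0.03, −0.11 to 0.04) the interval spanned 0, so that no difference was detectable at this depth.

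The WT library of the joint table stood apart from the other three for several members. It also held the most 2-cell-like marker RNA, with a sum of 35.7 cpm against 1.42, 0.443 and 1.53 in Dnmt1-/-, dCas9-OGA and dCas9-OGA-D242A, and the most trophoblast marker RNA, at 153 cpm against 51.8, 71.2 and 117, and the part of these in the differences was not tested. Zmym2 was at 30.5 cpm in WT (755 counts) but at 129, 113.5 and 116 cpm in Dnmt1-/-, dCas9-OGA and dCas9-OGA-D242A. Smarca5 was at 64.6 cpm in WT and 162, 140.2 and 172 cpm in the same order. Both encode long, AT-rich transcripts, with a GC content of the longest transcript of 39.2% and 40.7%. Rcor2, with 61.6% GC, was high in both untreated libraries, at 464 cpm in WT and 351 cpm in Dnmt1-/-, and low in both fusion libraries, at 141 cpm with the active and 145 cpm with the inactive enzyme.

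That WT library served in 3 comparisons, which share it. In dCas9-OGA against WT, 3 members were at least 1.5-fold higher and 2 lower, beside 24.5% and 21.7% of 12746 genes. In dCas9-OGA-D242A against WT, 2 were higher and 3 lower, beside 23.7% and 19.7% of 12933 genes. In Dnmt1-/- against WT, 2 were higher and 1 lower, beside 19.7% and 17.9% of 12593 genes. All 3 shifted with base composition. Across genes, which are not independent replicates, the Spearman correlation of the log2 ratio with GC content was −0.40, −0.35 and −0.44 in the same order, against −0.12 between the fusion libraries and 0.04 in the replicate libraries. The median of the 200 genes nearest in GC content and length is therefore given beside each ratio to WT, and the part of base composition was not tested further.

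In the order dCas9-OGA, dCas9-OGA-D242A and Dnmt1-/-, the log2 ratios to WT of Zmym2 were 1.88, 1.91 and 2.06, with medians of the nearest genes of 0.86, 0.66 and 0.70. Those of Smarca5 were 1.11, 1.41 and 1.32, with nearest genes at 0.81, 0.66 and 0.68. Hdac2 stood at 0.92, 0.48 and 0.58, and its nearest genes at 0.50, 0.46 and 0.50. Zmym2 thus exceeded its nearest genes by more than 1 log2 unit in each, while Hdac2 in dCas9-OGA-D242A and Dnmt1-/- lay close to them. On the low side, Rcor2 was at −1.72 and −1.68 in the fusion libraries and −0.40 in Dnmt1-/-, with nearest genes at −0.45, −0.22 and −0.31. Mbd3 was at −1.18, −0.64 and −0.42 (nearest genes −0.57, −0.30 and −0.33), and Mta2 at −0.50, −1.09 and −0.63 (nearest genes −0.33, −0.30 and −0.26).

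The remaining members stayed within 1.5-fold of WT in all 3 comparisons. Chd4, at 954 cpm in WT, had log2 ratios of −0.29, −0.12 and −0.11, and its nearest genes lay at −0.10, −0.21 and −0.29. Relative to these it was lower in dCas9-OGA (−0.19) but higher in dCas9-OGA-D242A (0.09) and Dnmt1-/- (0.18). Kdm1a had −0.17, 0.15 and −0.35 (nearest genes −0.14, −0.08 and −0.23), and Rcor1 had 0.41, 0.05 and 0.09 (nearest genes 0.09, −0.07 and −0.13). Hdac1 had −0.06, −0.21 and −0.39 (nearest genes −0.12, −0.10 and −0.13), on the 359 to 618 counts given above.

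**Figure D5:**
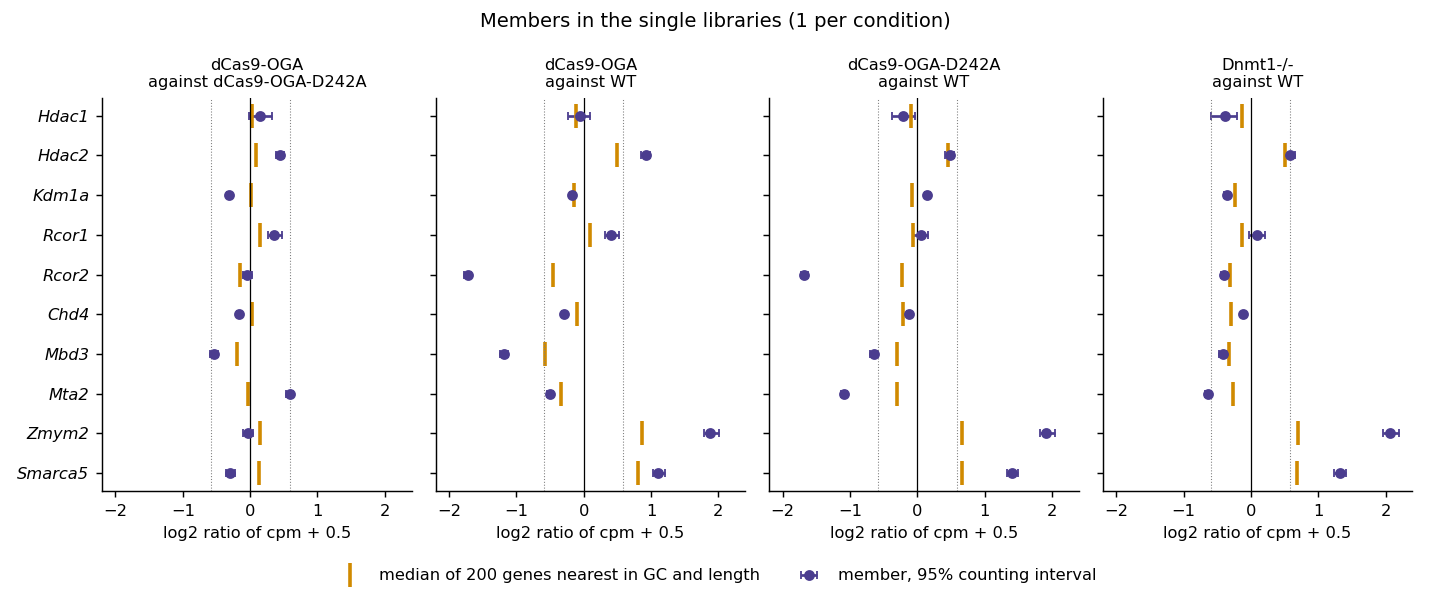
Log2 ratio of cpm + 0.5 (x axis) of the 10 members in the 4 comparisons of single libraries, 1 library per condition; points are members with 95% exact binomial counting intervals, orange ticks are the median of the 200 genes nearest in GC content and length, and dotted lines mark 1.5-fold. Against WT, Zmym2 lies at 1.88, 1.91 and 2.06 with its ticks at 0.86, 0.66 and 0.70, and between the fusion libraries all members lie between −0.54 and 0.59.

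Dnmt1-/- and WT cells were thus compared in both tables, which were scaled separately. The WT and Dnmt1-/- columns of the joint table are tied to no replicate, and whether they share RNA with the replicates is not given in the sources used here. Their fibroblast and 2-cell-like marker sums lay far from those of the replicates, although a level set across separately scaled tables is approximate. Fibroblast markers summed to 61.2 cpm in the single WT library, beside a signal of 1090 to 1562 in the WT replicates, and 2-cell-like markers to 35.7 cpm beside 591.5 to 627. In Dnmt1-/- the 2-cell-like sum was 1.42 cpm beside 245 to 276. The log2 values of the single and replicate libraries had the same sign for 6 members and the opposite sign for 4. Hdac1 (−0.39 and −0.35), Rcor2 (−0.40 and −0.42) and Mbd3 (−0.42 and −0.46) were lower in both, and Rcor1 (0.09 and 0.67), Zmym2 (2.06 and 0.43) and Smarca5 (1.32 and 0.28) were higher in both. For Smarca5 the replicate value was 0.03 and not called once pseudogene reads were added (limma adjusted p = 0.68). Hdac2 (0.58 and −0.18), Kdm1a (−0.35 and 0.17), Chd4 (−0.11 and 0.52) and Mta2 (−0.63 and 0.26) went opposite ways. These values of the single libraries carry the shift with base composition. With the median of the nearest genes subtracted in both tables, 7 members had the same sign and 3 the opposite one, since Chd4 was then at 0.18 and 0.51. Rcor2 was at −0.09 in the single and −0.42 in the replicate libraries, and Mbd3 at −0.08 and −0.45. The single libraries have no replicate error of their own, so these differences between the tables were not tested.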

How the data were processed

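RNA-seq of WT, Dnmt1-/-, dCas9-OGA and dCas9-OGA-D242A ES cells was analysed, and the O-GlcNAc ChIP-seq and the counts on repeats were not used here. The authors mapped single-end reads to mm10, took out rRNA and used featureCounts 1.5.0 to count what was left over Ensembl v87 gene models. The submitters' processing notes list TopHat2 2.0.11 for the dCas9 libraries and HISAT2 2.1.0 for the replicate libraries, whereas the methods name HISAT2 with no exception. The labels name an unstranded and the methods a stranded kit, so the strand setting of the counting is not settled. For 4 single libraries the authors deposited whole counts per gene. The sample files of the fusion libraries hold the same counts as the joint table, whose WT and Dnmt1-/- columns are tied to no replicate. The deposited values of the 6 replicate libraries are a signal: each count was divided by a library factor, and a library sums to 959084.3 to 1036637.2. File headers are out of step with the columns there, and the value column was identified by its place. Whole reads were recovered for 100% of values (tolerance 1e-06).

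Replicate libraries were tested on log2(signal + 0.5) with limma 3.58.1 (trend), over 17297 genes left by filterByExpr (edgeR) on recovered reads, with Benjamini-Hochberg adjustment at 0.05. Quasi-likelihood tests in edgeR 4.0.16, which called 12252 genes, and DESeq2 1.42.0 were run on recovered reads as alternatives. All 3 tools were tested on simulated data. Single libraries were scaled with TMM factors and compared without a test among genes with at least 100 counts summed. Paralogue ratios used exact permutation tests. Positions, exon lengths and copies came from GENCODE vM21 (26679 of 26797 and 49326 of 49671 identifiers matched), with blastn at 90% identity over 200 bases, and promoters from the RefSeq table (GRCm38.p6).

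Named were all members, their paralogues, Dnmt1, and of each list of other subunits the 2 called genes with the largest rise and the 2 with the largest fall. Ctbp2 and Rsf1 were named after their values were seen. 1 gene of the CoREST list is not reported here, and the counts of that list leave it out. Members and lists were chosen with earlier results of these data known. Replicate numbers were not used to pair the samples in the main fit. Over all tested genes, same-numbered WT and Dnmt1-/- libraries had deviations that correlated at 0.074, −0.016 and 0.065. Such a correlation cannot decide whether libraries of the same number shared a batch, and the labels do not say. Alternatives were the count tools, the scaling, pseudocounts, filters, the chromosome median, a replicate block and left-out libraries, and, chosen after seeing the data, the GC and length neighbours and the addition of pseudogene reads. The software was Python 3.11.15 with SciPy 1.17.1, NumPy 2.4.6, pandas 2.3.3 and matplotlib 3.10.9, and R 4.3.3.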

Additional observations from a re-analysis of the deposited data

How the results depend on the processing

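Under all alternatives tried, every member kept its direction in the replicate libraries. Of the recomputed calls, 157 kept their side of the threshold, and 3 were lost: Kdm1a with the same total per library (log2 fold change 0.08) and with GC and length neighbours removed (0.10), and Smarca5 with pseudogene reads added (0.03). The cause of the first was not tested. Adding pseudogene reads alters only Hdac1 and Smarca5, so for the other members that setting could not change a call. Over these settings the log2 fold change of Rcor1 was 0.52 to 0.70 and that of Chd4 0.43 to 0.59, so that which of them passed 1.5-fold depended on the setting. The count of genes called was 12324, between 11404 (DESeq2) and 13271 (no filter on low values, 26797 genes tested) under the other settings, and 11723 to 12289 when 1 library was left out. With the replicate number as a block it was 12556, and the block changed no call of a member. The 8 paralogue differences kept their direction in all 64 recomputed values, although without WT replicate 2 that of Mta2 over Mta1 was 0.09 in place of 0.17 and that of Mbd3 over Mbd2 −0.08 in place of −0.15. Part of the 64 could not change. Division by length cancels in the difference between groups, and pseudogene reads touch only the pairs of Hdac1 and Smarca5. Moreover, leaving out a library makes the smallest exact p larger still, so the kept directions say nothing of the test. In the single libraries, members past 1.5-fold in dCas9-OGA against dCas9-OGA-D242A went from 1 to 0 with total counts, with a pseudocount of 5 and with the chromosome median removed, since Mta2 lies at the limit. In dCas9-OGA against WT they went from 5 to 3 with GC and length neighbours removed, and in dCas9-OGA-D242A against WT from 5 to 4. In Dnmt1-/- against WT they went from 3 to 2 with neighbours removed and to 4 with total counts, DESeq2 size factors or a pseudocount of 0, since Hdac2 lies at the limit there. Recomputed single-library values of the members moved by less than the counting interval in 210 cases and by more in 70. The 210 include values with pseudogene reads added for members other than Hdac1 and Smarca5, which could not move. The sign changed in 9 recomputed values, over 7 ratios, none of which was past 1.5-fold. These include Smarca5 between the fusion libraries (−0.30, and 0.15 with the chromosome median removed) and, with neighbours removed, Chd4 in dCas9-OGA-D242A (−0.12 to 0.09) and in Dnmt1-/- (−0.11 to 0.18) against WT. With pseudogene reads added, the shift of Smarca5 over Smarca1 was 1.44 in place of 1.69. With at least 10 counts in place of 100, the share of genes past 1.5-fold was 30.9% in place of 28.3% between the fusion libraries. The counting intervals leave out the spread between replicates, which 1 library per condition cannot give.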

Other observations

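Paralogue ratios of the single libraries are given as values, with no replicate check. The log2 ratio of Rcor1 to Rcor2 per kilobase was −4.11 in WT, −3.62 in Dnmt1-/-, −1.98 with active and −2.38 with inactive dCas9-OGA, so Rcor2 was the more abundant scaffold in each. Zmym2 to Zmym3 was −1.66 in WT and 1.33, 0.45 and 1.03 in the same order of the other libraries. Smarca5 to Smarca1 was 5.13 in WT and 3.71, 3.30 and 2.76 in the others, on 36 counts of Smarca1 in WT and 185 to 499 in the others. Mta2 to Mta1 was 0.95, 0.58 and 0.53 in WT, Dnmt1-/- and dCas9-OGA and −0.82 in dCas9-OGA-D242A. In the order WT, Dnmt1-/-, active and inactive fusion, Mbd3 to Mbd2 was 4.27, 5.24, 3.03 and 4.86, Chd4 to Chd3 was 5.22, 5.55, 4.54 and 4.95, and Kdm1a to Kdm1b was 4.07, 3.64, 4.02 and 4.05. Hdac1 to Hdac2 was −1.77, −2.76, −2.76 and −2.47, and with the reads of Gm10093 added 1.59, 0.64, 0.63 and 1.00.

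Markers were also summed in the single libraries, in cpm. Those of 2-cell-like cells and trophoblast are given above. Fibroblast markers came, in the same order of libraries, to 61.2, 34.9, 57.5 and 74.5 and ES cell markers to 5901, 4691, 7155 and 4596. Primitive endoderm markers came to 222, 129, 282 and 141.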
